A study of Mus musculus with 10 samples.

Results

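The nuclear genes that encode subunits of the oxidative phosphorylation complexes were read out of RNA-seq of cultured mouse molars. A gene was a member when it was protein coding in the GENCODE mouse annotation, lay on an autosome or the X chromosome, had a row in the deposited count table, and carried a symbol of the subunit families Nduf (a, b, c, s or v followed by a digit), Sdha to Sdhd, Uqcr, Cox4 to Cox8 or Atp5. The rule used symbols, the annotation and the presence of a row, and no expression level or change. It found 79 of the 18381 genes in the table, of which 37 belong by symbol to complex I, 4 to complex II, 8 to complex III, 13 to complex IV and 17 to ATP synthase. All 79 passed the filter on low counts that left 14504 genes for testing. The rule also matches 6 annotated genes that have no row in the table, namely Cox6a2, Cox7a1, Cox7b2, Cox8b, Cox8c and a further gene model named Atp5o, and these were not analysed here.

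Oxidative phosphorylation takes place in the inner mitochondrial membrane. Complexes I, III and IV pass electrons from NADH to oxygen and pump protons, complex II feeds in electrons from succinate without pumping, and ATP synthase uses the returning protons to make ATP. Most subunits are made from nuclear genes and imported, while a small set of core subunits is made inside the mitochondrion from its own genome. Some nuclear subunits have paralogues that are used in particular tissues or at low oxygen, such as Cox4i2 in place of Cox4i1.

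The samples were first lower molars of wild type C57BL/6JOlaHsd embryos at embryonic day 14, kept for 6 h in hanging drop culture. The medium held either mouse recombinant IGF1 (insulin-like growth factor 1, 750 ng per ml, in PBS with bovine serum albumin) or the same volume of that buffer alone (control). From embryos 1, 2, 3, 4 and 6 one molar went to IGF1 and the other to the buffer, with left and right balanced, and every tooth was its own library. There were thus 5 IGF1 and 5 control samples and the comparison was made within embryos. All teeth analysed here were cultured, so every difference below is between cultured teeth at 1 dose and 1 time.

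Libraries held 2845773 to 8403151 counts for control teeth and 3456634 to 8763113 for IGF1 teeth, with both teeth of embryo 1 the shallowest. The tissue label was checked against marker genes. All 12 epithelial and all 12 mesenchymal markers were above 0 in every sample, with summed levels of 2345 to 3569 and 7213 to 9348 CPM (counts scaled to a common library total) in control teeth and of 2628 to 3628 and 6606 to 9209 CPM in IGF1 teeth. Of the 12 epithelial markers Krt5 rose, and of the 12 mesenchymal ones Vim, Pdgfra and Pdgfrb fell. For these and the marker counts that follow, 6.72% of all genes tested rose and 4.76% fell in edgeR's test. Markers of red blood cells summed to 851 to 1428 CPM in control and 606 to 1113 CPM in IGF1 teeth, and 5 of the 7 tested fell. Of endothelial, macrophage, skeletal muscle and Schwann cell markers, edgeR's test called 2 of 10, 1 of 7, 0 of 4 and 0 of 3 tested lower and 0 higher. At an unadjusted p under 0.05, 5, 1, 0 and 1 were lower and 1, 0, 0 and 0 higher. DESeq2's Wald test and limma-voom each called 1 endothelial gene higher, DESeq2 called 0 macrophage genes lower, and limma-voom called 1 Schwann cell gene lower. Whether these shifts bear on the subunit genes was not tested. In whole teeth, a change in the number of cells of a type and a change in RNA per cell cannot be told apart.

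With IGF1, 13 of the 79 subunit genes rose and 0 fell in edgeR's quasi-likelihood test with embryo as a block (Benjamini-Hochberg adjusted p under 0.05 over all genes tested, as for every adjusted p and every call below). That is 16.5% of the members, where 6.72% of all genes tested rose, 4.76% fell and 11.5% were called in either direction. The members had higher counts in control teeth than all genes tested (median 42.6 against 29.5 CPM). They also varied less between control teeth (median SD 12.2% of the mean, against 15.1%). Both make a call easier, and the share was not compared with that of genes matched for them. At an unadjusted p under 0.05, edgeR's test put 30 members higher and 2 lower, and DESeq2's Wald test and limma-voom also called 0 members lower. The risen genes were Cox4i2, Cox8a, Cox5a, Cox6a1 and Cox7a2 of complex IV, Ndufa4l2, Ndufv3, Ndufa11 and Ndufa12 of complex I, Uqcrq of complex III, and Atp5g1, Atp5e and Atp5b of ATP synthase. In size they differed. Cox4i2 and Ndufa4l2 had log2 fold changes above 2, and the other 11 lay between 0.27 and 0.59. The median log2 fold change over the members was 0.14, beside -0.00 over all genes tested, and 65 members had a positive value and 14 a negative one (82.3% positive, against 49.4% of all genes).

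**Figure D1:**
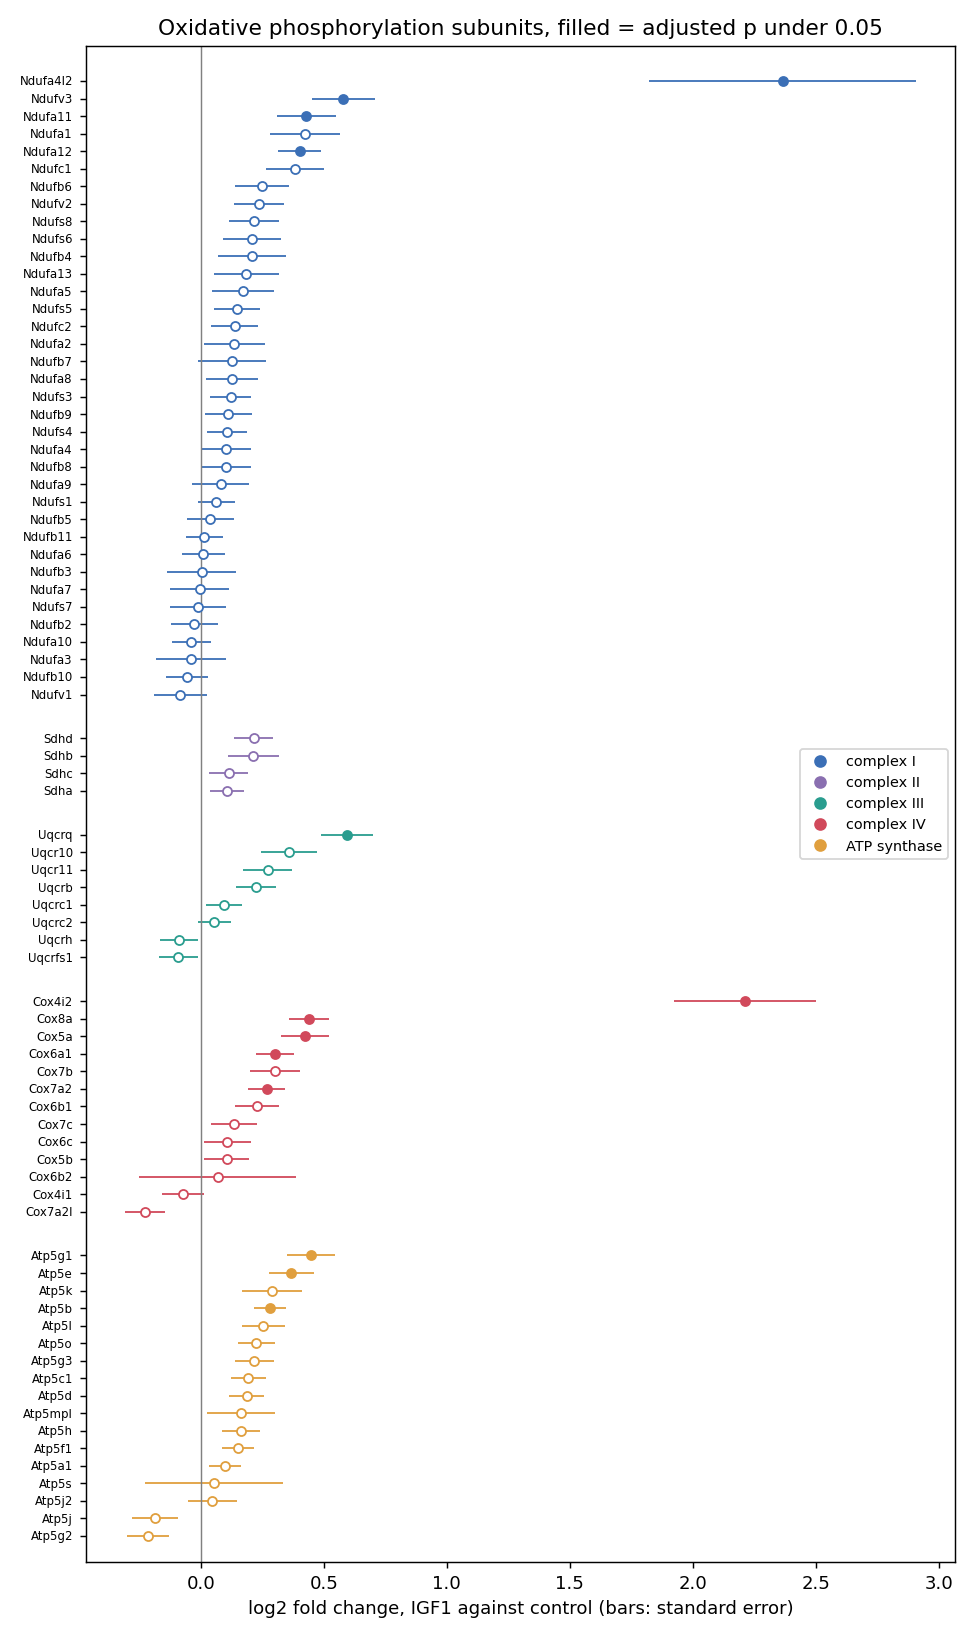
Fitted log2 fold change of IGF1 against control (x axis) for 78 of the 79 subunit genes, ordered by size within each complex; bars are standard errors from the fit over 5 embryos and filled points have an adjusted p under 0.05. The 2 points above 2 are Ndufa4l2 and Cox4i2, and the other filled points lie between 0.27 and 0.59.

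The small differences were spread over the embryos unevenly. The median difference over the 79 members was 0.18, 0.11, 0.01, 0.23 and 0.25 on the log2 scale in embryos 1, 2, 3, 4 and 6, so embryo 3 showed almost none. By direction alone, 25 members (31.6%) were higher with IGF1 in all 5 embryos, where 13.0% of all genes were, and 2 (Cox7a2l and Atp5g2) were lower in all 5, where 11.2% of all genes were. The 5 IGF1 values lay above all 5 control values for 5 members (Cox4i2, Cox8a, Cox5a, Atp5b and Ndufa1), and for 4.21% of all genes. The members' summed share of all counts was 0.448% ± 0.0118 (SD, n = 5) in control and 0.495% ± 0.0336 in IGF1 teeth, and it was higher with IGF1 in 5 of 5 embryos.

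The count of risen members moved with the embryos in the fit, and so did the calls over all genes. It was 8 without embryo 1, 8 without embryo 2, 15 without embryo 3, 6 without embryo 4 and 5 without embryo 6, with 0 fallen each time. Over all genes tested, the same fits called 1124, 1188, 1602, 986 and 994 genes in either direction, in place of 1666. Without the replicate block, which leaves the pairing of the teeth out of the fit, 7 members rose and 887 genes (6.12%) were called in all. Uqcrq and Cox8a rose under all 13 alternatives tried. Cox4i2 rose under the 12 in which it was tested. The strictest filter removed it, because the control tooth of embryo 1 had fewer than 10 counts.

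By complex, the median log2 fold change was 0.12 for complex I, 0.16 for complex II, 0.16 for complex III, 0.23 for complex IV and 0.19 for ATP synthase. Risen genes made up 4 of 37, 0 of 4, 1 of 8, 5 of 13 and 3 of 17 members in the same order, where 6.72% of all genes rose. Whether the complexes differ from each other was not tested. In embryo 3 the medians of complex I, complex II and ATP synthase were -0.06, -0.02 and -0.00, while those of complex III and complex IV were 0.11 and 0.23.

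**Figure D2:**
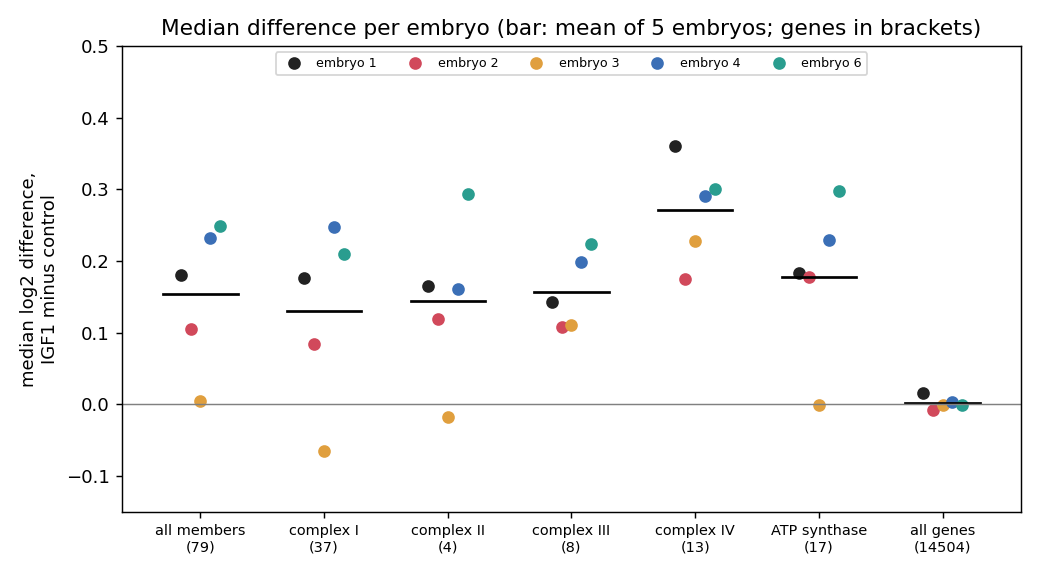
Median log2 difference, IGF1 minus control, in each embryo (points) for all members, for each complex and for all genes tested, with the number of genes in brackets; black bars are means over the 5 embryos. All genes lie within 0.02 of 0 in every embryo, and embryo 3 (orange) is at or below 0.01 for all groups but complexes III and IV.

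Complex I takes electrons from NADH. Ndufv1, its flavin-binding subunit, had a log2 fold change of -0.08 (SE 0.11, adjusted p = 0.673), the lowest of the complex, and Ndufv2, an iron-sulphur subunit beside it, had 0.24 (SE 0.10, adjusted p = 0.169). The 4 risen genes of complex I were accessory subunits or, for Ndufa4l2, a paralogue of one.

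Ndufa4l2 (chr10:127514967-127517154, plus strand, GRCm38) is a paralogue of Ndufa4 and is known as a gene induced at low oxygen. It measured 21.0, 8.62, 1.30, 8.23 and 3.79 CPM in the control teeth of embryos 1, 2, 3, 4 and 6 (samples are given in this order throughout) and 26.5, 77.1, 72.2, 19.8 and 12.4 CPM in the IGF1 teeth. It was higher with IGF1 in every embryo, but the groups overlapped, since the control tooth of embryo 1 was above the IGF1 teeth of embryos 4 and 6. Its rise (log2 fold change 2.36, SE 0.54, adjusted p = 0.0178) was carried most by embryos 2 and 3, with within-embryo differences of 0.34, 3.15, 5.72, 1.26 and 1.69. Without embryo 2 it was not called (2.07, adjusted p = 0.0675), and without embryo 3 it was 1.70. Its annotated exons share 32 of 934 bases with those of Shmt2 on the opposite strand, a serine metabolism gene that rose too (log2 fold change 0.95, adjusted p = 0.00127). The counting is not stated to use strand, so a read lying wholly within the shared bases could not be assigned to either gene. A read reaching beyond the shared bases could be. Ndufa4 itself, now usually placed in complex IV, had a log2 fold change of 0.10 (SE 0.10, adjusted p = 0.556).

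Ndufv3 (chr17:31520115-31531331, plus strand), an accessory subunit of the NADH-oxidising module, measured 17.5, 19.1, 20.4, 18.7 and 23.2 CPM in control and 22.5, 39.0, 29.5, 31.3 and 26.0 CPM in IGF1 teeth. Every tooth with IGF1 exceeded its partner, and the groups overlapped through the shallow IGF1 tooth of embryo 1 (log2 fold change 0.58, SE 0.13, adjusted p = 0.0159). Ndufa12 (chr10:94198720-94221443, plus strand), another accessory subunit, measured 26.8, 25.0, 31.8, 34.5 and 32.3 CPM in control and 38.01, 34.1, 39.4, 41.1 and 46.4 CPM in IGF1 teeth. Again all 5 embryos were higher with IGF1, and the overlap was slight (log2 fold change 0.40, SE 0.09, adjusted p = 0.0132). Ndufa11 (chr17:56717767-56722141, plus strand), a subunit of the membrane arm, measured 12.7, 14.9, 13.1, 17.3 and 16.4 CPM in control and 20.4, 18.3, 16.1, 20.7 and 26.3 CPM in IGF1 teeth. It lay close to the threshold (log2 fold change 0.43, SE 0.12, adjusted p = 0.0423) and was called in 4 of 13 alternatives. The call of Ndufv3 was lost without embryo 2 (adjusted p = 0.0584) or embryo 4 (0.0684), and that of Ndufa12 without embryo 6 (0.0618) or without the block (0.0634). That of Ndufa11 was lost on leaving out any embryo, with adjusted p between 0.0584 and 0.168, and with upper quartile scaling (0.0550), in DESeq2's Wald test (0.126), without the block (0.107) and with trends on GC content and length removed (0.0733).

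Of the other 33 complex I members, Ndufc1 came nearest to a call. It measured 15.8, 18.1, 15.001, 12.1 and 16.7 CPM in control and 16.1, 22.8, 21.2, 18.6 and 21.0 CPM in IGF1 teeth, with a log2 fold change of 0.38 (SE 0.12, adjusted p = 0.0632), and limma-voom called it (0.40, adjusted p = 0.0457). Ndufa1, an X-linked subunit of the membrane arm, measured 10.3, 8.18, 10.2, 8.65 and 10.5 CPM in control and 11.5, 10.7, 12.1, 14.7 and 14.7 CPM in IGF1 teeth. Its groups did not overlap, yet it was not called (log2 fold change 0.42, SE 0.14, adjusted p = 0.083). The remaining 31 members had log2 fold changes between -0.08 and 0.25.

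Promoters, which the rule did not use, were searched for 4 short motifs. RefSeq windows on GRCm38.p6, from 250 bases before to 50 bases after each gene start, were at hand for 63 of the 79 members (68 windows, since some genes have several starts), including 10 of the 13 risen genes but not Cox4i2, Uqcrq or Ndufa4l2. The core site of NRF1 (CGCATGCG), a factor known to control many respiratory genes, was found in 9 of the 68 windows (13.2%) against 1.87% of all 32851 windows in the table and 3.58% of those of tested genes. The ETS motif CCGGAAG, bound by GABPA among others, was in 23.5% against 8.86% of all windows and 16.1% of those of tested genes. The YY1 motif AAGATGGC was in 13.2% against 2.75% and 4.05%, and the core of the hypoxia response element, ACGTG, was in 22.1% against 19.6% and 24.4%. At least 1 of the 4 was in 39 of the 68 windows. Both strands were searched, no matches of different motifs overlapped in the members' windows, and ACGTG overlaps its own reverse complement wherever CACGTG occurs.

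The YY1 motif often lay after the start. In 8 of the 9 members' windows that held it, a match began after the gene start, where 41.3% of all 903 windows with the motif had one, and Ndufc1, Ndufs4, Ndufs6 and Ndufs7 are among these 8. None of the 10 risen genes with a window held it, and of those 10 windows 2 held the NRF1 core, 3 the ETS motif and 3 the hypoxia core. A match is a description of letters and not a binding site. The promoters of Ndufa11, which rose and holds the NRF1 core, and of Ndufc1, which holds the YY1 motif just after its start, are given here 5′ to 3′ on the gene's strand, with the motif matches in capitals and the gene start at base 251.
Ndufa11, chr17:56717512-56717811, plus strand: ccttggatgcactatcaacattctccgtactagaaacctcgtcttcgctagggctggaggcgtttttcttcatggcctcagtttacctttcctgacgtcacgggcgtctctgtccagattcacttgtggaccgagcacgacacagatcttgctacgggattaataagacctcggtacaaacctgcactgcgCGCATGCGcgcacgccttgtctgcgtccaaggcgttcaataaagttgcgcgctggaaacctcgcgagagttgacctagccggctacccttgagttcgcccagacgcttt
Ndufc1, chr3:51408906-51409205, minus strand: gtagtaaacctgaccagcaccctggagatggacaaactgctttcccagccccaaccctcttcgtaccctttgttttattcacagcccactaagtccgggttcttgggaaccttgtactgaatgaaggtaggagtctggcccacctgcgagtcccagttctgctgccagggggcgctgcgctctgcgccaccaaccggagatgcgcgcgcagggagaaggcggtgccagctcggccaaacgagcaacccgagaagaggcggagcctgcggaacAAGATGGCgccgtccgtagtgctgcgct

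Complex II, succinate dehydrogenase, is the enzyme that the respiratory chain shares with the tricarboxylic acid cycle, and it has no mitochondrially encoded subunit. None of its 4 genes was called by edgeR, DESeq2 or limma-voom, and 1 was higher at an unadjusted p under 0.05 in edgeR's test. Sdhd, a membrane anchor, had the largest value, with 39.2, 38.3, 37.2, 42.8 and 36.5 CPM in control and 47.5, 44.5, 42.7, 45.2 and 45.7 CPM in IGF1 teeth. All 5 embryos were higher with IGF1 and the overlap came from the control tooth of embryo 4 (log2 fold change 0.22, SE 0.08, adjusted p = 0.105). The flavoprotein Sdha had the smallest, 0.11 (SE 0.07, adjusted p = 0.371), and Sdhb and Sdhc had 0.21 (SE 0.10, adjusted p = 0.212) and 0.11 (SE 0.08, adjusted p = 0.399).

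In complex III, which passes electrons from ubiquinol to cytochrome c, Uqcrq was the risen gene. Uqcrq (chr11:53427922-53430831, minus strand) encodes a small accessory subunit. It measured 19.9, 21.8, 24.0, 28.7 and 27.1 CPM in control and 38.6, 34.4, 28.3, 41.5 and 43.7 CPM in IGF1 teeth. The highest control tooth, of embryo 4, lay just above the lowest IGF1 tooth, of embryo 3, and all 5 embryos were higher with IGF1 (log2 fold change 0.59, SE 0.11, adjusted p = 0.00523). This is a rise of 1.51 times.

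The other 7 genes of complex III were not called. Uqcr10 measured 24.7, 20.7, 25.0, 27.7 and 29.8 CPM in control and 40.3, 32.0, 25.8, 34.3 and 34.1 CPM in IGF1 teeth, higher in all 5 embryos but by little in embryo 3, with a log2 fold change of 0.36 (SE 0.11, adjusted p = 0.0664). It was called without embryo 3 (0.44, adjusted p = 0.0346) and with trends on GC content and length removed (0.35, adjusted p = 0.0342). Uqcr11 and Uqcrb had 0.27 (SE 0.10, adjusted p = 0.105) and 0.22 (SE 0.08, adjusted p = 0.0993). The core proteins Uqcrc1 and Uqcrc2 had 0.09 (SE 0.07, adjusted p = 0.465) and 0.05 (SE 0.07, adjusted p = 0.655), the iron-sulphur protein Uqcrfs1 had -0.09 (SE 0.08, adjusted p = 0.513), and the hinge protein Uqcrh had -0.09 (SE 0.08, adjusted p = 0.526).

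Complex IV, cytochrome c oxidase, hands the electrons to oxygen, and its nuclear subunits surround a core made in the mitochondrion. It held 5 risen genes of 13. With Ndufa4 and Ndufa4l2 counted here in place of complex I, a choice made after the data were seen, 6 of 15 rose with the same median of 0.23. Complex I without them had 3 of 35 risen (8.57%) and a median of 0.12, where 6.72% of all genes rose.

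Cox4i2 (chr2:152754173-152765037, plus strand) encodes the isoform of subunit 4 that is known from lung, pericytes and oxygen-sensing cells. It measured 3.09, 2.48, 2.13, 2.55 and 3.33 CPM in control teeth and 16.4, 20.4, 15.03, 8.89 and 6.14 CPM in IGF1 teeth. The groups were well apart, with the lowest IGF1 tooth (embryo 6) at 6.14 CPM and the highest control tooth (also embryo 6) at 3.33 CPM. Its rise was 4.63 times (log2 fold change 2.21, SE 0.29, adjusted p = 0.000846), with within-embryo differences of 2.38, 3.004, 2.78, 1.77 and 0.87. Leaving out an embryo moved it between 1.97 and 2.54, and it was called each time. Cox4i1 (chr8:120668222-120674207, plus strand), the isoform used in most tissues, measured 166, 115, 132, 141 and 133 CPM in control and 131, 123, 109, 139 and 149 CPM in IGF1 teeth. Its groups overlapped throughout and it was not called (log2 fold change -0.07, SE 0.09, adjusted p = 0.646).

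The ratio of Cox4i2 to Cox4i1 counts within each sample was 2.05% ± 0.349 (SD, n = 5) in control and 10.7% ± 5.23 in IGF1 teeth. The log2 ratio was higher with IGF1 in 5 of 5 embryos by 2.23 (SD 0.98), and the two-sided exact permutation test, which flips the sign of each embryo's difference, gave p = 0.0625, the smallest that 5 embryos allow (adjusted over the 6 ratios tested, 0.0938). The ratio of Ndufa4l2 to Ndufa4 counts was 19.3% ± 18.8 in control and 84.7% ± 63.2 in IGF1 teeth, again higher in 5 of 5 embryos (log2 difference 2.34, SD 2.23, exact permutation p = 0.0625, adjusted 0.0938). Without embryo 3 the log2 difference was 1.47. This ratio of counts was highest in the IGF1 teeth of embryos 2 and 3, at 155% and 148%, but it is not divided by length (934 exonic bases for Ndufa4l2 and 624 for Ndufa4) and so does not order the levels of the genes. For Cox6b2, known from testis, against Cox6b1 the log2 difference was -0.24 (SD 1.08, exact permutation p = 0.75, higher in 3 of 5 embryos). The annotated transcripts of these paralogues share 0 stretches of 31 bases, so reads of that length matching one perfectly would not match the other.

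**Figure D3:**
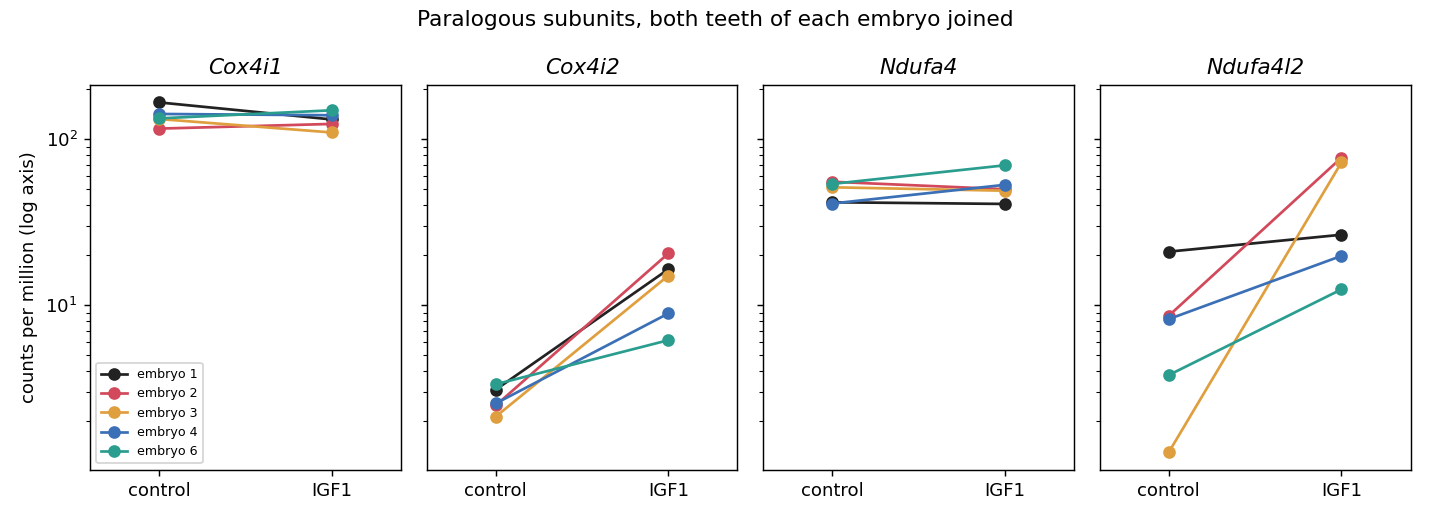
CPM on a log axis for the paralogues Cox4i1 and Cox4i2, and Ndufa4 and Ndufa4l2, with the control and IGF1 teeth of each embryo joined by a line. Cox4i2 and Ndufa4l2 go up in all 5 embryos, most steeply for Ndufa4l2 in embryo 3 (from 1.30 to 72.2 CPM), while Cox4i1 and Ndufa4 stay between 109 and 166 and between 40.6 and 69.4 CPM.

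The other 4 risen genes of complex IV changed by far less. Cox8a (chr19:7215153-7217616, minus strand), the isoform of subunit 8 found in most tissues, measured 50.2, 49.97, 42.4, 46.5 and 45.7 CPM in control and 73.7, 57.1, 57.2, 63.9 and 68.2 CPM in IGF1 teeth. Its groups did not overlap (log2 fold change 0.44, SE 0.08, adjusted p = 0.00612). Cox5a (chr9:57521274-57532426, plus strand), which sits on the matrix side of the enzyme, measured 33.3, 26.9, 35.1, 36.9 and 30.4 CPM in control and 44.6, 38.04, 41.1, 43.3 and 51.3 CPM in IGF1 teeth. These groups too were separate, if narrowly (log2 fold change 0.42, SE 0.10, adjusted p = 0.0185). Its annotated exons share 269 of 645 bases with those of Gm26631 on the opposite strand.

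Cox6a1 (chr5:115345642-115348981, minus strand), the non-muscle isoform of subunit 6A, measured 53.2, 41.5, 43.5, 55.2 and 49.8 CPM in control and 74.3, 46.8, 53.1, 63.7 and 65.1 CPM in IGF1 teeth. Its groups overlapped and all 5 embryos were higher with IGF1 (log2 fold change 0.30, SE 0.08, adjusted p = 0.0287). Cox7a2 (chr9:79755361-79759878, minus strand), the non-muscle isoform of subunit 7A, measured 41.6, 45.7, 51.3, 44.4 and 57.2 CPM in control and 51.8, 55.2, 56.1, 59.0 and 67.0 CPM in IGF1 teeth. It was the risen member nearest to the threshold (log2 fold change 0.27, SE 0.08, adjusted p = 0.0443). The call of Cox5a was lost without embryo 1 (adjusted p = 0.0508), 2 (0.0542) or 6 (0.0818). That of Cox6a1 held in 6 of 13 alternatives. It was lost without embryo 1, 3, 4 or 6 (between 0.0539 and 0.111), in DESeq2's Wald test (0.0730), without the block (0.190) and with trends on GC content and length removed (0.0789). That of Cox7a2 held in 4 of 13. It was lost without embryo 1, 2, 4 or 6 (between 0.0906 and 0.158), with upper quartile scaling (0.0674), with no expression filter (0.0578), in DESeq2's Wald test (0.136), in limma-voom (0.0508) and without the block (0.176).

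Cox7a2l, a relative of Cox7a2 that is known to join complexes III and IV in supercomplexes, went the other way in sign. It measured 87.3, 91.7, 92.7, 86.1 and 98.1 CPM in control and 69.4, 87.4, 88.7, 74.5 and 70.2 CPM in IGF1 teeth. All 5 embryos were lower with IGF1, but it was not called (log2 fold change -0.23, SE 0.08, adjusted p = 0.0999). Of the rest of complex IV, Cox7b and Cox6b1 had 0.30 (SE 0.10, adjusted p = 0.0807) and 0.23 (SE 0.09, adjusted p = 0.128), and Cox7c, Cox6c, Cox5b and Cox6b2 had values between 0.07 and 0.13.

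Of the 4 risen complex IV genes with a promoter window, Cox7a2 held none of the motifs searched, and the other 3 windows are shown for their matches. That of Cox8a holds the ETS motif at 2 places around the start, that of Cox6a1 the NRF1 core and the ETS motif, and that of Cox5a only the hypoxia core. These 3 are printed as above, with matches in capitals.
Cox8a, chr19:7217567-7217866, minus strand: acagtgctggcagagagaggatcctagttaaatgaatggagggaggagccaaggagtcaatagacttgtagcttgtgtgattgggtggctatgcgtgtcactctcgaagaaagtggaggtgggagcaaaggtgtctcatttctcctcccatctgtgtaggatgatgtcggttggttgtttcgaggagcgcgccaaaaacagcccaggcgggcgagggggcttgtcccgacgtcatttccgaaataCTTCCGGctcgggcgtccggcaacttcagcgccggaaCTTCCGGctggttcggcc
Cox6a1, chr5:115348909-115349208, minus strand: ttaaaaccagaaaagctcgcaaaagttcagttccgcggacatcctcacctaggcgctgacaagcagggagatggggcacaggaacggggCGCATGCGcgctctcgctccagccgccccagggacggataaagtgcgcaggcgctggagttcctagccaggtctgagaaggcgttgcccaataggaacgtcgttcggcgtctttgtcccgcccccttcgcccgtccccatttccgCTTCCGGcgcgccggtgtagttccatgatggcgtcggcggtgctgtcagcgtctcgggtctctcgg
Cox5a, chr9:57520982-57521281, plus strand: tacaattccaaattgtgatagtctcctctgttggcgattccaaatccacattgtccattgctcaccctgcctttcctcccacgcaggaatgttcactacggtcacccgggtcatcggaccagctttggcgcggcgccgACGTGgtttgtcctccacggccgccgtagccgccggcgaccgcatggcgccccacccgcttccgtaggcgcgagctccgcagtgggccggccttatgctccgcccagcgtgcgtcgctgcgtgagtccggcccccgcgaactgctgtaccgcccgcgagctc

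ATP synthase joins a catalytic head to a membrane rotor. Atp5b (chr10:128083273-128090391, plus strand), the catalytic beta subunit, was the most abundant member per length and rose. It measured 415, 417, 436, 484 and 426 CPM in control and 517, 504, 494, 551 and 584 CPM in IGF1 teeth. The groups were separate and the change small (log2 fold change 0.28, SE 0.07, adjusted p = 0.0205). The alpha subunit Atp5a1, its partner in the head, had 0.10 (SE 0.06, adjusted p = 0.365), higher in 5 of 5 embryos. Atp5e (chr2:174461072-174464105, minus strand), the epsilon subunit of the central stalk, measured 45.7, 34.5, 36.4, 35.0 and 33.9 CPM in control and 51.0, 42.7, 43.4, 46.0 and 55.2 CPM in IGF1 teeth. It rose (log2 fold change 0.37, SE 0.09, adjusted p = 0.0276), with the control tooth of embryo 1 inside the range of the IGF1 group. The gamma and delta subunits of the same stalk, Atp5c1 and Atp5d, had 0.19 (SE 0.07, adjusted p = 0.104) and 0.19 (SE 0.07, adjusted p = 0.122). Without embryo 1, 4 or 6 Atp5b was not called (adjusted p = 0.0749, 0.0517 and 0.101), nor was Atp5e without embryo 2, 4 or 6 (0.0551, 0.0903 and 0.12), in DESeq2's Wald test (0.0526) or without the block (0.0680).

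The rotor ring is built of identical c subunits made from 3 genes, Atp5g1, Atp5g2 and Atp5g3, whose products differ in the import sequence that is cut off. Atp5g1 (chr11:96068852-96075670, minus strand) measured 42.3, 30.5, 31.7, 25.1 and 33.9 CPM in control and 52.7, 38.8, 37.4, 42.5 and 50.7 CPM in IGF1 teeth. It rose (log2 fold change 0.45, SE 0.10, adjusted p = 0.0135), and it was higher in 5 of 5 embryos although the control tooth of embryo 1 overlapped the IGF1 group. Atp5g2 (chr15:102662864-102672352, minus strand) measured 63.6, 33.3, 33.8, 29.1 and 35.7 CPM in control and 57.0, 27.2, 26.2, 25.0 and 34.8 CPM in IGF1 teeth. It was lower with IGF1 in all 5 embryos but not called (log2 fold change -0.22, SE 0.09, adjusted p = 0.136), while with trends on GC content and length removed it was (-0.28, adjusted p = 0.0434). Atp5g3, with the most counts of the 3, had 0.22 (SE 0.08, adjusted p = 0.0966), and without embryo 2 it was called (0.29, adjusted p = 0.0446). The call of Atp5g1 was lost without embryo 4 (adjusted p = 0.0583) or 6 (0.0608) and without the block (0.0809).

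The makeup of the c subunit counts was compared within each sample. Atp5g1 made up 21.3% ± 1.52 (SD, n = 5) of them in control and 25.6% ± 1.24 in IGF1 teeth, higher in 5 of 5 embryos. Atp5g2 made up 25.0% ± 4.83 and 19.2% ± 4.58, lower in 5 of 5 embryos. The exact permutation test gave p = 0.0625 for each, the smallest possible, and 0.0938 adjusted over the 6 ratios. For Atp5g3 the shares were 53.8% ± 5.74 and 55.2% ± 4.55 (exact permutation p = 0.438). These shares are not divided by length (4912, 731 and 724 exonic bases for Atp5g1, Atp5g2 and Atp5g3) and so do not order the levels. Per kb of annotated exon the control levels were 6.66, 53.5 and 112 CPM in the same order. The 3 genes share 0 stretches of 31 bases. The promoters of the pair that differed in sign are printed as above, with the hypoxia core marked at 2 places in Atp5g1, and the hypoxia core and the NRF1 core in Atp5g2.
Atp5g1, chr11:96075582-96075881, minus strand: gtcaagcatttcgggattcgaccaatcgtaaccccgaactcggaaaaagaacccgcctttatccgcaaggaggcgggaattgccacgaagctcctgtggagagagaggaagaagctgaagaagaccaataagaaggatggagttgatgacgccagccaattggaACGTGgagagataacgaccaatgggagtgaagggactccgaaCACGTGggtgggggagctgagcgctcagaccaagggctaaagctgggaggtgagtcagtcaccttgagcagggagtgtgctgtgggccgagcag
Atp5g2, chr15:102670998-102671297, minus strand: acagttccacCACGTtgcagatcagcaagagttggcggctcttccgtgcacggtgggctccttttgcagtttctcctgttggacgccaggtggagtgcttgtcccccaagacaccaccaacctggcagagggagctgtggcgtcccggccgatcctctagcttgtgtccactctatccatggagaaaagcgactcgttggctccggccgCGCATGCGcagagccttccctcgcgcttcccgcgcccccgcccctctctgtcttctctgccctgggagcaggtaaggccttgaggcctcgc

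Of the other members of ATP synthase, 7 had positive values, from 0.05 (SE 0.10, adjusted p = 0.817) for Atp5j2 to 0.29 (SE 0.12, adjusted p = 0.154) for Atp5k, and Atp5j had -0.19 (SE 0.09, adjusted p = 0.234). Atp5s, which the symbol brings in although it is not a structural subunit, had 0.05 (SE 0.28, adjusted p = 0.931) at a few CPM per sample.

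Levels between genes were compared per kb of annotated exon, as CPM per kb in control teeth (n = 5). Atp5b was highest at 227 ± 14.8 (SD), followed by Cox4i1 at 180 ± 24.1, Atp5a1 at 162 ± 12.1 and Uqcrh at 151 ± 15.1. The last 3 lay within the spread of their neighbours in this order. Among the members placed in complex I by symbol the highest was Ndufa4 at 77.7 ± 10.9. In complex II it was Sdha at 48.8 ± 4.16, next to Sdhb at 45.2 ± 4.50. The lowest were Atp5s at 2.99 ± 1.42 and Cox4i2 at 3.45 ± 0.618. With IGF1, Cox4i2 reached 17.0 ± 7.36, far below Cox4i1 at 170 ± 19.7, and Ndufa4l2 went from 9.18 ± 8.11 to 44.5 ± 32.8, beside Ndufa4 at 83.8 ± 17.0. Ndufb2 (7.47 ± 0.756) and Atp5g1 (6.66 ± 1.27) were low on this scale, which divides by their long annotated exons (4375 and 4912 bases, against a median of 971 over the members and 3399 over all genes). Divided by the length of the principal transcript instead, they were as low, at 7.47 and 6.93 CPM per kb. Ndufb8, by contrast, went from 18.3 to 62.7 CPM per kb and Cox7c from 39.3 to 82.4 CPM per kb, so the order of some members depends on the gene model.

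**Figure D4:**
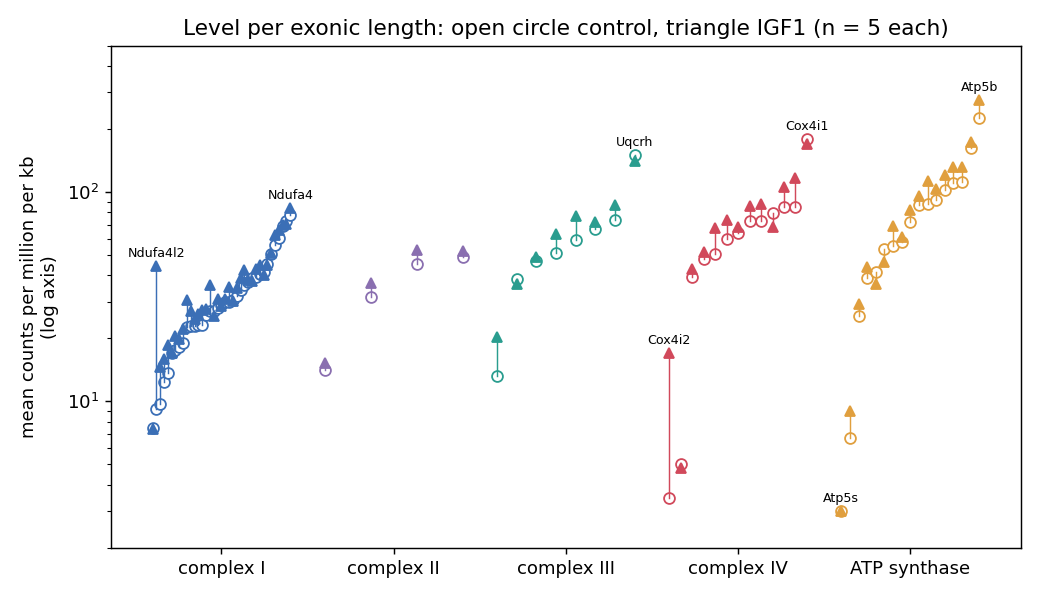
Mean level per exonic length (CPM per kb, log axis) of the 79 members in control (open circles) and IGF1 (triangles) teeth, ordered by control level within each complex (n = 5 per group). Cox4i2 and Ndufa4l2 are low members in control teeth with the longest steps to IGF1.

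The subunits made in the mitochondrion were set beside the nuclear ones. Of the 13 mtDNA-encoded genes, mt-Co1 (log2 fold change -0.36, SE 0.09, adjusted p = 0.0224) and mt-Nd4l (-0.42, SE 0.09, adjusted p = 0.0158) fell and 0 rose in edgeR's test, and the median was -0.27. Over all genes tested, 4.76% fell and 6.72% rose. At an unadjusted p under 0.05, 7 of the 13 were lower and 0 higher, and DESeq2's Wald test called 5 lower and limma-voom 2. Their share of all counts was 2.70% ± 0.427 (SD, n = 5) in control and 2.18% ± 0.190 in IGF1 teeth, higher with IGF1 only in embryo 1. The nuclear members' share was thus higher in all 5 embryos and the mitochondrial share lower in 4 of 5. No ratio of both was tested.

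Among genes around the complexes, 4 of the 15 tested carriers and subunits outside the name rule rose and 0 fell. Over all genes tested, 6.72% rose and 4.76% fell. At an unadjusted p under 0.05, 7 of the 15 were higher and 0 lower. DESeq2's Wald test and limma-voom each called 3 higher and 0 lower. The 4 risen genes were Cycs, cytochrome c (0.61, SE 0.10, adjusted p = 0.00342), Slc25a5, an ADP/ATP carrier (0.56, SE 0.08, adjusted p = 0.00193), Cyc1, the cytochrome c1 of complex III (0.27, SE 0.08, adjusted p = 0.0476), and Higd1a, a low-oxygen protein of the inner membrane (2.14, SE 0.28, adjusted p = 0.000806). Of 49 tested assembly factors, which build the complexes without staying in them, 0 rose and 0 fell, with a median of 0.00 (6 higher and 1 lower at an unadjusted p under 0.05, and none called by DESeq2 or limma-voom). Of 78 mitochondrial ribosomal proteins, edgeR's test called Mrps27 and Mrpl49 higher and 0 lower, against 6.72% of all genes called higher, and the median was 0.05. At an unadjusted p under 0.05, 9 were higher and 1 lower. DESeq2's Wald test called 0 of them in either direction, and limma-voom called 2 higher.

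In the tricarboxylic acid cycle and its pyruvate dehydrogenase gate, 4 of 22 genes rose and 2 fell, with a median of 0.07. Over all genes tested, 6.72% rose and 4.76% fell. At an unadjusted p under 0.05, 7 of the 22 were higher and 2 lower. DESeq2's Wald test called 3 higher and 2 lower, and limma-voom called 4 higher and 2 lower. Citrate synthase (Cs, 0.43, SE 0.07, adjusted p = 0.00359) and Idh3a rose. The 4 pyruvate dehydrogenase kinases, which close the gate, split: Pdk1 (1.34, SE 0.23, adjusted p = 0.00446) and Pdk3 (0.84, SE 0.10, adjusted p = 0.000491) rose, and Pdk2 (-0.55, SE 0.12, adjusted p = 0.0141) and Pdk4 (-1.37, SE 0.27, adjusted p = 0.00889) fell. Of 18 regulators of mitochondrial biogenesis 0 rose (2 higher at an unadjusted p under 0.05, and none called higher by DESeq2 or limma-voom), and Myc (-0.55, SE 0.09, adjusted p = 0.00389), Sirt1 and Tfb2m fell.

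A list of 22 hypoxia response genes was read beside Cox4i2 and Ndufa4l2. The list was chosen with earlier results of these data known, so its count of risen genes is no independent result. Of its 21 tested genes 18 rose and 0 fell, where 6.72% of all genes rose and 4.76% fell. Also 0 were lower at an unadjusted p under 0.05 and by DESeq2 and limma-voom. The median log2 fold change was 1.68. Ldha, the lactate-forming enzyme (1.54, SE 0.20, adjusted p = 0.000775), Pgk1 of glycolysis (1.53, SE 0.25, adjusted p = 0.00334) and the mitochondrial gene Mgarp (3.88, SE 0.32, adjusted p = 4.47e-05) were among the risen genes. Higd1a and Pdk1 stand in this list as well as in those above. The list's median difference by embryo was 0.61, 2.76, 2.58, 0.94 and 0.82, high in embryos 2 and 3 as for Ndufa4l2, whereas the median of the 77 members other than Cox4i2 and Ndufa4l2 was 0.18, 0.10, -0.00, 0.23 and 0.23. Oxygen in the drops is not given in the sources used here, and its part in any of these values was not tested. Pericyte markers, read because Cox4i2 is known from pericytes, summed to 393 to 535 CPM in control and 486 to 591 CPM in IGF1 teeth, with Notch3 (0.44, adjusted p = 0.00832) and Cspg4 (0.29, adjusted p = 0.0407) risen of 6 tested. Pdgfrb, which pericytes also express, was read in the mesenchymal list and fell (-0.32, adjusted p = 0.0334). The part of these markers in the rise of Cox4i2 was not tested.

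**Figure D5:**
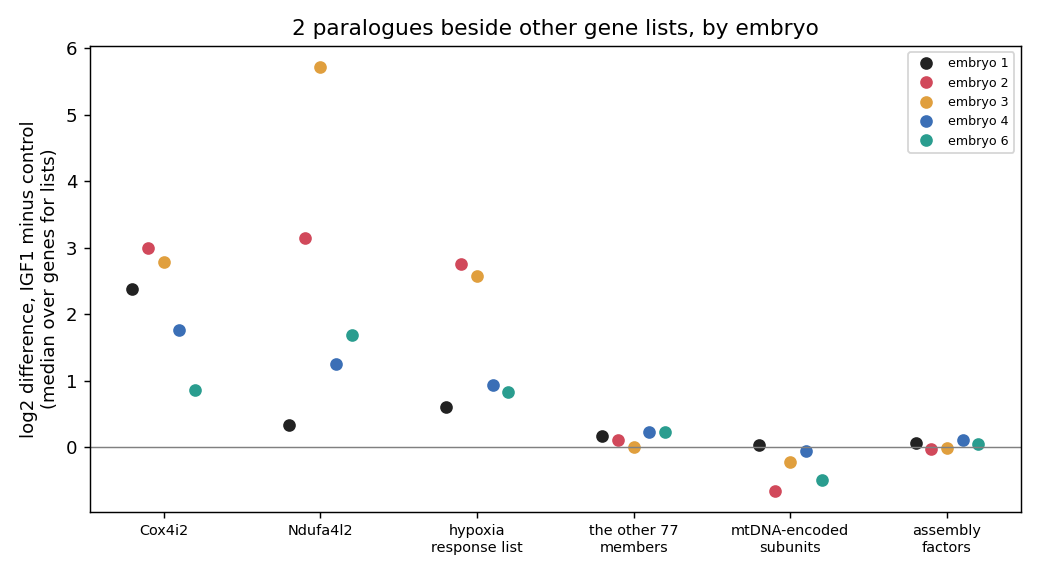
Log2 difference, IGF1 minus control, in each embryo for Cox4i2, for Ndufa4l2, and as medians over genes for the hypoxia response list, the other 77 members, the 13 mtDNA-encoded subunits and the 49 assembly factors. Embryos 2 and 3 are highest in the first 3 columns, and the other 77 members lie between -0.00 and 0.23.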

How the data were processed

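Libraries were made from the RNA of single teeth with the Ovation Mouse RNAseq System. The authors deposited estimated counts per gene (expected counts, whole numbers in the table, so rounding to whole numbers changed none). The submitters' processing notes name FastQC 0.11.8, Trimmomatic 0.39, Salmon 0.99.0, DESeq2 and GRCm38; the transcript set and strand use are not given in the sources used here. Of 18381 identifiers, 18287 were in the GENCODE M21 annotation. Counts were tested with edgeR 4.0.16 (R 4.3.3) by the quasi-likelihood test after TMM normalization and the expression filter, with Benjamini-Hochberg adjustment over 14504 genes. Embryo was a replicate block since the 2 teeth sharing a number in the labels came from 1 embryo. Deviations from group means correlated at 0.319, 0.208, -0.0389, 0.170 and 0.313 within embryos, against a median of -0.0463 between embryos. Within groups, samples were further apart than sampling noise allows (chi-square per degree of freedom 4.68 to 19.4). In 3 simulations of 200 changed genes (log2 of 1) among 14504 for this comparison, 83.5% were recovered and 8.13% of calls were false, above the nominal 5%. The simulated counts held no embryo differences, and the changes put in were larger than those of most risen members. The simulated shares therefore do not give the recovery or false calls for such small changes. Alternatives used DESeq2 1.42.0 and limma 3.58.1. CPM use TMM-scaled totals. Ratios add 0.5 to counts. Genes named are the called members, the largest and smallest changes and levels by complex, paralogues, members nearest the threshold and the 15 called list genes with the smallest p, with others added after their values were seen. The members and lists were chosen with earlier results of these data known. Results for 1 member are not reported here on its own.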

Additional observations from a re-analysis of the deposited data

Results flagged for a closer look

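Of 100 groups of 5 samples examined, 7 had a sample far from the other 4, where chance gives about 5. The value given divides the distance to the closest other sample by the whole range of the 5. The control tooth of embryo 1, from the embryo with the fewest counts, stood apart for 4 genes. It was highest for Atp5g2 (63.6 CPM, others 29.1 to 35.7, value 0.807), Atp5e (45.7 CPM, others 33.9 to 36.4, value 0.791) and Cox6b2 (6.87 CPM, others 2.19 to 3.26, value 0.771), and lowest for Uqcrfs1 (47.8 CPM, others 53.0 to 54.7, value 0.755). Summed over complex IV, the control tooth of embryo 6 was highest (727 CPM, others 653 to 671, value 0.759). Among IGF1 teeth, embryo 4 was lowest for Ndufb2 (25.7 CPM, others 33.4 to 34.7, value 0.855) and embryo 6 highest for Slc25a5 (246 CPM, others 179 to 196, value 0.745).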

How the results depend on the processing

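Leaving out each embryo gave 5 to 15 called members, in place of 13, and 986 to 1602 called genes in all, in place of 1666. Without the replicate block 7 members and 887 genes were called. Both counts stayed within 1.5 times of their values under the other scalings, filters, DESeq2's Wald test (9 members), limma-voom (13) and the removal of trends on GC content and length (15 higher, 1 lower). Of the 55 members free of exon overlap, a choice made after the data were seen, 10 were called. The median log2 fold change over members stayed positive throughout, from 0.11 to 0.20. The ratio of Cox6b2 to Cox6b1 ran from -0.55 to 0.18 over the embryos left out and changed sign without embryo 1 (0.18). Of 581 values for 45 named genes, 524 kept direction and call, 44 lost the call, 5 gained it and 8 turned in direction. Those that turned were not called. Atp5s turned under limma-voom (-0.034), without the block (-0.0095) and without embryo 4, and leaving out embryos gave -0.20 to 0.29. Ndufb2 turned without embryo 2 or 4 (-0.064 to 0.041 over embryos), Cox6b2 without embryo 2 or 6 (-0.18 to 0.35) and Ndufv1 without embryo 3 (-0.16 to 0.017). The cause was not tested. Low counts limit Atp5s, Cox6b2 and the control values of Cox4i2, and the depth of embryo 1 limits its differences.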
